A study of Mus musculus with 2 samples.

Results

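Occupancy of the transcription factor NRF1 in mouse skeletal muscle was examined at 10 genes of FOXO and insulin-mTOR signalling, out of 21000 protein-coding genes. The genes were Irs1, Pik3r1, Akt1, Mtor, Ddit4, Eif4ebp1, Eif4ebp2, Foxo1, Foxo3 and Foxo4, and they were taken by name. The study asked how the glucocorticoid receptor, the demethylase LSD1 and NRF1 share target genes in muscle, and it located NRF1 by chromatin immunoprecipitation and sequencing (ChIP-seq), in which DNA held by a protein is pulled down with an antibody and sequenced. Sites of occupancy appear as peaks, and the highest point of a peak is its summit.

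The series holds 2 libraries, both labelled as skeletal muscle of wild-type mice with the NRF1 antibody. The study's mice were males on a C57BL/6J background. Wild-type mice of 9 weeks are named for the analysis of NRF1 target genes in the study, while the labels of the libraries give neither an age, nor the muscle, nor how many animals gave each library. The reporting summary of the study lists the library of replicate 2 as input DNA, that is, DNA without immunoprecipitation, which conflicts with its label. A single list of peaks was analysed, and the title of replicate 1's library stands in every peak name. Hence no value below has a replicate error, and every value is given as a description. The identity of the tissue could not be checked against its markers, because a list of peaks holds no expression.

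Insulin and insulin-like growth factors act through receptor tyrosine kinases that phosphorylate adaptor proteins such as IRS1. These recruit PI3K, whose lipid product brings the kinase AKT to the membrane. AKT phosphorylates FOXO transcription factors, which then leave the nucleus, and relieves the TSC brake on mTORC1, the kinase complex that raises protein synthesis by inactivating 4E-BP proteins. In muscle the FOXO factors switch on genes of protein breakdown and autophagy, and the balance between both arms is known to set fibre size. NRF1, nuclear respiratory factor 1, is best known for genes of mitochondria and binds a palindrome rich in CG steps, GCGCATGCGC.

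Of the 10 genes, Foxo3 and Foxo4 had an NRF1 peak in their promoter, whereas Foxo1, Irs1, Pik3r1, Akt1, Mtor, Ddit4, Eif4ebp1 and Eif4ebp2 had none. A promoter was taken as 1000 bp before to 100 bp after a known transcription start, and a promoter peak had its summit there. The share was 20.0% (2 of 10 genes, Wilson 95% interval 5.67 to 51.0%), beside 13.4% of all protein-coding genes (2808 of 21000, 12.9 to 13.8%), so the interval of the 10 genes held the share of all genes. Intervals cover counting error over genes only. Read depth is unknown from the list, hence a gene without a peak may carry a site below the threshold of the peak caller.

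The bases around both promoter summits are given here because each holds a copy of the palindrome with 1 mismatch, shown in capitals. They are mm10 reference sequence, read 5′ to 3′ on the strand of the gene, from chr10:42276787-42276907 on the minus strand for Foxo3 and from chrX:101254070-101254190 on the plus strand for Foxo4.
Foxo3: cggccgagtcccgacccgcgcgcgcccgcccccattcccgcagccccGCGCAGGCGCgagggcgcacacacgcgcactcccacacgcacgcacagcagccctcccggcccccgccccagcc
Foxo4: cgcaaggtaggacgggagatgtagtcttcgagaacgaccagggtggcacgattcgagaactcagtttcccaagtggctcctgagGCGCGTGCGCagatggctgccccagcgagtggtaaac

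Foxo3, which encodes a FOXO factor of muscle atrophy and autophagy genes, lies on the minus strand at chr10:42181845-42276695 (gene ID 56484) and has 1 known start. Its peak at chr10:42276732-42277083 was 352 bp wide and lay before the start, outside any gene, with the summit 152 bp before the start of Foxo3. No other gene had its promoter there. Fold enrichment is the signal at the summit relative to the background of the peak caller, as deposited. It was 17.3 at this peak. This was higher than that of 79.7% of the promoter peaks, and the −log10 q was 40.1. The matched site, at chr10:42276851-42276860, differed from the palindrome by T6G, with positions counted from 1 at the 5′ end of the palindrome, and its centre lay 8.5 bp from the summit.

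Foxo4, the X-linked member of the family, lies on the plus strand at chrX:101254261-101260873 (gene ID 54601). Its peak at chrX:101254031-101254300 was 270 bp wide, and the summit lay 398 bp before the known start at position 101254528. Its fold enrichment of 16.7 exceeded that of 76.5% of promoter peaks, close to the value at Foxo3, and its −log10 q was 30.9. The site at chrX:101254154-101254163 carried A5G and lay 28.5 bp from the summit. RefSeq also holds a predicted Foxo4 transcript, and relative to its start the summit lay at −131 bp.

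The 10-base sites at both FOXO promoters are common at NRF1 peaks. The word at Foxo3, GCGCAGGCGC or its reverse complement GCGCCTGCGC, stood within 100 bp of the summit in 610 of 2607 promoter peaks (23.4%), whose median fold enrichment was 13.7. The word at Foxo4, GCGCGTGCGC or GCGCACGCGC, stood in 432 of them (16.6%), with a median of 13.4. Seen from the genes, 857 protein-coding genes (4.08%) held the first word in a promoter and 720 of these (84.0%) had a promoter peak. For the second word the numbers were 634 genes (3.02%) and 512 with a peak (80.8%).

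Foxo1, which encodes the third of the insulin-regulated FOXO factors of muscle, had its nearest summit 166198 bp before its start (chr3:52268337-52350109, plus strand, gene ID 56458). That peak, at chr3:52102032-52102186, lay in an intron of Maml3, a coactivator of Notch signalling, 2867 bp from the start of Maml3. Its fold enrichment was 6.56 and no copy of the palindrome with up to 2 mismatches lay within 100 bp of its summit. The fourth family member, Foxo6, had no promoter peak either, with the nearest summit 283088 bp before its start. Thus 2 of the 4 FOXO genes had a promoter peak, beside 13.4% of all protein-coding genes, and Foxo6 was added after values were seen.

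At the level of the receptor adaptor and PI3K, neither listed gene had a promoter peak. Irs1 encodes the adaptor that links the insulin receptor to PI3K (chr1:82233105-82291439, minus strand, gene ID 16367). Its nearest summit lay 25108 bp before the start, at the peak chr1:82316458-82316604 in the promoter of Rhbdd1, with a fold enrichment of 5.69 and a site that carried G9T. Pik3r1 encodes the regulatory subunits p85α, p55α and p50α of PI3K (chr13:101680761-101768217, minus strand, gene ID 18708) and has 2 known starts. Its nearest summit lay 859135 bp beyond the start in the direction of transcription, in the promoter of the zinc transporter gene Slc30a5. The peak there, chr13:100833240-100833585, had a fold enrichment of 18.8 and the same T6G site as Foxo3. Of all protein-coding genes 84.4% had a summit nearer to a start than Pik3r1, against 23.8% for Irs1.

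Akt1, the gene of the kinase in the centre of the pathway (chr12:112653821-112674884, minus strand, gene ID 11651, 2 known starts), had the nearest summit of the 8 genes without a promoter peak. It lay 18726 bp before the start in a peak at chr12:112693444-112693737, which had a fold enrichment of 15.7 and a −log10 q of 52.2. This peak was outside known genes, 14770 bp from the nearest known start, that of Zbtb42. Like both FOXO promoter peaks it had a fold enrichment above the median of promoter peaks and a 1-mismatch site near the summit. The peak held 2 copies with 1 mismatch, and the one nearer to the summit carried A5G, as in Foxo4, and lay 5.5 bp from it. The bases around the summit, from chr12:112693570-112693650 on the minus strand, are shown with this site in capitals and the other copy, which comes before it, in lower case.
Akt1, nearest peak: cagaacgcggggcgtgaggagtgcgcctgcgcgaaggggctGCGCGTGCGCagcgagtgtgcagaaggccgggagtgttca

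Mtor, which encodes the kinase of mTORC1 and mTORC2 (chr4:148448582-148557685, plus strand, gene ID 56717), had its nearest summit 109845 bp after its start, beyond the end of the gene. This peak, chr4:148558200-148558534, lay in the promoter of Exosc10, a subunit of the RNA exosome, and its fold enrichment was 4.49 with a −log10 q of 5.13. The site there carried C10T.

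Ddit4 encodes REDD1, a stress- and glucocorticoid-induced inhibitor of mTORC1 (chr10:59949675-59951770, minus strand, gene ID 74747). Its nearest summit lay 51083 bp before its start, in a peak of 771 bp at chr10:60002628-60003398 in the promoter of Ascc1. The fold enrichment there was 11.1, the −log10 q was 40.1, and the site carried A5C.

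Eif4ebp1 and Eif4ebp2 encode translation repressors that bind the cap-binding protein eIF4E until mTORC1 phosphorylates them. Eif4ebp1 (chr8:27260327-27275656, plus strand, gene ID 13685) was the farthest of the 10 from any summit, at 1141026 bp, and 88.6% of protein-coding genes had a nearer one. Its nearest peak served the promoters of Hook3 and Rnf170, with a fold enrichment of 13.7. Eif4ebp2 (chr10:61428491-61452790, minus strand, gene ID 13688) had a summit 23032 bp before its start, in the promoter of Lrrc20. That peak, chr10:61475615-61475764, was among the weak ones, with a fold enrichment of 4.44 and a −log10 q of 3.6, and held no site with up to 2 mismatches.

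**Figure D1:**
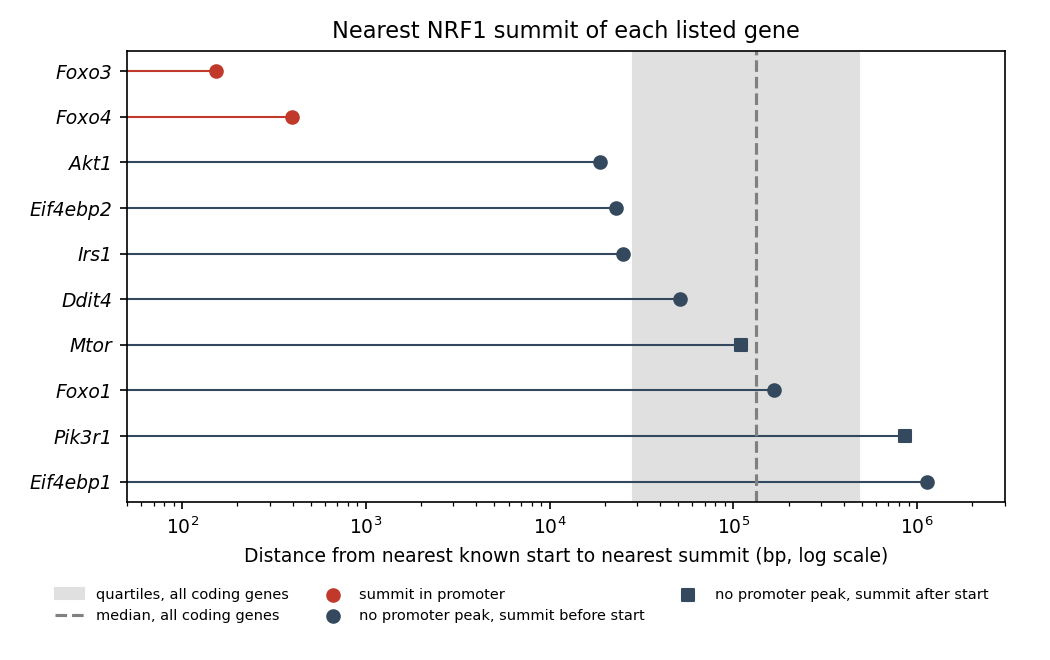
Distance in bp (log scale) from the nearest known start of each of the 10 genes to the nearest NRF1 summit, as 1 point a gene, with circles for summits before the start and squares for summits after it. Foxo3 at 152 bp and Foxo4 at 398 bp (red) lie inside their promoters and the other 8 genes lie between 18726 and 1141026 bp. The shaded band shows the quartiles of all protein-coding genes, 28.4 and 481.0 kb, and the dashed line their median, 133.0 kb.

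No summit lay inside any of the 10 gene bodies, and Foxo4 alone was touched by a peak, whose end reached 40 bp into the gene as bounded by RefSeq with its predicted transcript. Within 100 kb of the starts there were 3 summits for Foxo4 and for Akt1, 2 for Ddit4, 1 for each of Foxo3, Irs1 and Eif4ebp2, and 0 for Foxo1, Pik3r1, Mtor and Eif4ebp1. Such an empty neighbourhood was common, since 55.7% of all protein-coding genes had no summit within 100 kb. Within 1 Mb the number ran from 0 at Eif4ebp1 to 10 at Akt1, beside a median of 4.0 over all protein-coding genes. The median distance to the nearest summit was 38.1 kb for the 10 genes, and it was 80.5 kb with peaks of q at most 1e-05 and 109.0 kb with a fold enrichment of at least 5. Of the 8 genes without a promoter peak, 6 (75.0%) had their nearest summit in the promoter of another gene, which was also the case for 81.7% of all protein-coding genes without a promoter peak (14871 of 18192).

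By ChIP with quantitative PCR, on other muscle samples, the study measured its factors at named sites of Ddit4, Eif4ebp2 and Pik3r1, and NRF1 itself was among those measured at Ddit4. The PCR values were not analysed here. Of its 8 primer pairs at these genes, 6 were placed at a single position in mm10 by exact match of both primers, and 2 pairs, both for Eif4ebp2, were not placed. None of the 6 amplicons overlapped an NRF1 peak of the list, which does not show that NRF1 was absent from these sites. The amplicon Ddit4_GBSp1, at chr10:59952370-59952601, covered −831 to −600 bp relative to the start of Ddit4 and lay 50027 bp from the nearest peak. The 3 upstream Ddit4 amplicons came closer to the Ascc1 peak, with gaps of 32631 bp at GBSe1, 28278 bp at GBSe2 and 23190 bp at GBSe3. At Eif4ebp2_GBSp2, from 10 to 224 bp after the start, the gap was 22956 bp, and at Pik3r1_GBSe3, at chr13:101812030-101812263, it was 978445 bp.

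The promoters were next searched for the palindrome itself, on both strands, whether or not a peak was there. Each gene was put in a class by its closest copy over all its promoters. Foxo3 and Foxo4 were the only ones of the 10 with a copy of at most 1 mismatch, which 2548 of all protein-coding genes (12.1%) also held. Foxo1, Irs1, Pik3r1 and Akt1 held copies with 2 mismatches at best, whereas Mtor, Ddit4, Eif4ebp1 and Eif4ebp2 held none within 2 mismatches. No match says only that these letters are not in the window.

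Across all protein-coding genes the share with a promoter peak fell with the number of mismatches. It was 89.4% where the palindrome was exact (329 of 368 genes), 73.0% at 1 mismatch (1591 of 2180), 13.9% at 2 (735 of 5275) and 1.16% beyond (153 of 13177). Of the listed genes, both with 1 mismatch had a peak, and none of the 4 with 2 mismatches and none of the 4 beyond had one. These shares describe sequence and peaks of the same list and were not tested.

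All copies with 2 mismatches at the genes without a promoter peak are shown as 30 bases each, with the copy in capitals, to set them beside the copies at Foxo3 and Foxo4. There were 8 such copies, 1 at Foxo1 (chr3:52268339-52268368), 2 at Irs1 (chr1:82291354-82291383 and chr1:82291685-82291714), 1 at Pik3r1 (chr13:101768225-101768254) and 4 at Akt1 (chr12:112674183-112674212, chr12:112674265-112674294, chr12:112674349-112674378 and chr12:112674363-112674392). Each name is followed by the position of the centre of the copy relative to the start. The Foxo1 copy, the Irs1 copy at 70 bp and the Akt1 copy at 78 bp lie in exons, and the Akt1 copy at −4 bp spans a start.
Foxo1 at 16 bp: gggcggggcgGCGCGCGCGCcgccgcgggc
Irs1 at 70 bp: agtaactgcaGCGGCTGCGCctcgggagga
Irs1 at −261 bp: caaagggccaGCGCGGGCGCctctgcggca
Pik3r1 at −23 bp: tgggggcgggGCGCAGGGGCgggcccgggg
Akt1 at 78 bp: cagcgcggcaGCGCACGCGAgtccgggacc
Akt1 at −4 bp: tgggcgggcgGCGCGGGCGCggggcgggga
Akt1 at −88 bp: ctgcggggccGCGCTCGCGCtcacggggtg
Akt1 at −102 bp: cccgagggcgGCGCCTGCGGggccgcgctc

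The Foxo1 copy differed from the palindrome by A5G and T6C. The Irs1 copies carried C4G with A5C, and A5G with T6G, and the Pik3r1 copy carried T6G and C8G. In Akt1 the changes were T6C with C10A, A5G with T6G, A5T with T6C, and A5C with C10G. Hence in 4 of the 8 copies both mismatches fell on the central AT step and in the other 4 copies 1 of them did. This count was not made over all genes, so it describes these copies only. The 2-mismatch copies at Akt2, an AKT gene with a promoter peak, carried C8T with C10T, G1A with T6G, and A5T with C10G. The first of these left the central step intact, but it lay at −124 bp, while the Akt2 summit lay at −14 bp. The copy nearest to that summit was the one with G1A and T6G. The sites at the Foxo3 and Foxo4 peaks, with T6G and A5G, also changed the central step.

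**Figure D2:**
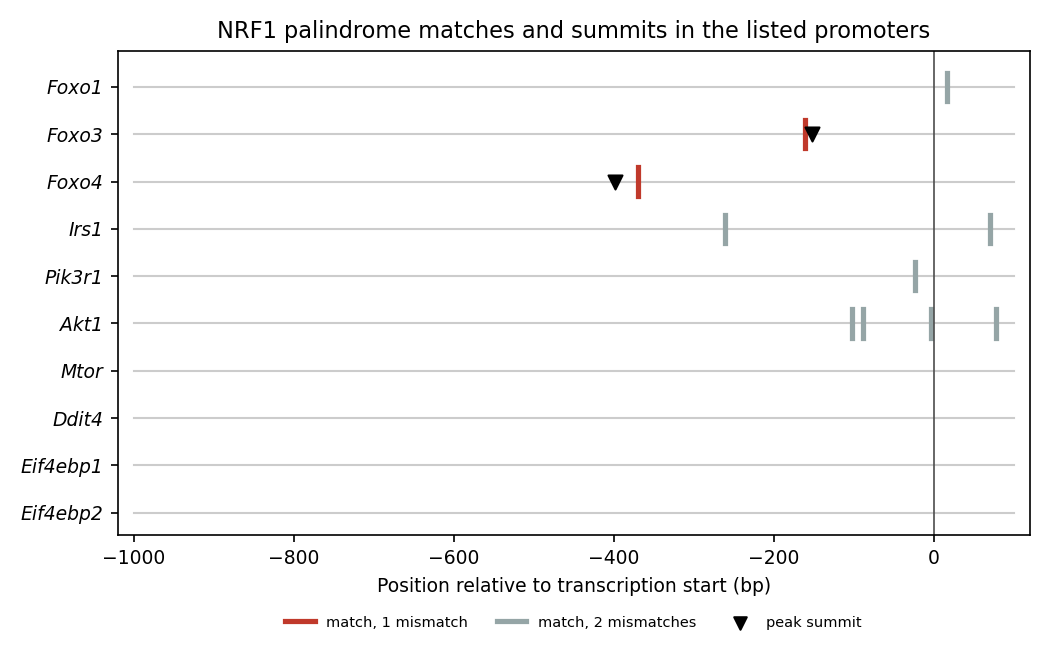
Copies of the NRF1 palindrome in the promoters of the 10 genes, drawn from 1000 bp before to 100 bp after the known start (x axis, bp), with red bars for 1 mismatch, grey bars for 2 mismatches and triangles for peak summits. For genes with 2 known starts each copy is placed relative to its own start. Red bars and triangles occur together at Foxo3 and Foxo4 only, and 4 genes carry no bar.

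CpG content around the starts did not set the 2 FOXO promoters apart. The CpG ratio, observed over expected CG steps within 250 bp of the start (the start with the highest ratio where a gene has several), was 0.899 for Foxo3 and 0.633 for Foxo4. The other 8 genes ranged from 0.656 at Eif4ebp1 to 1.11 at Foxo1, so on this choice of start Foxo4 had the lowest value of the 10 and Foxo1 the highest. Akt1 depended on the choice, with 0.972 at the start used and 0.292 at its most upstream start, which would be the lowest value of the 10. At the starts used all 10 promoters had a ratio of at least 0.6, and among all 11721 protein-coding genes at or above this value 23.1% had a promoter peak. The median was 0.868 for the 10 genes, 0.879 for all genes with a promoter peak and 0.595 for those without. The window of 250 bp does not reach the Foxo4 summit, 398 bp before the start. Within 100 bp of the summits the ratio was 0.982 at Foxo4 and 0.917 at Foxo3. The other 8 genes have no promoter summit at which to take such a value.

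**Figure D3:**
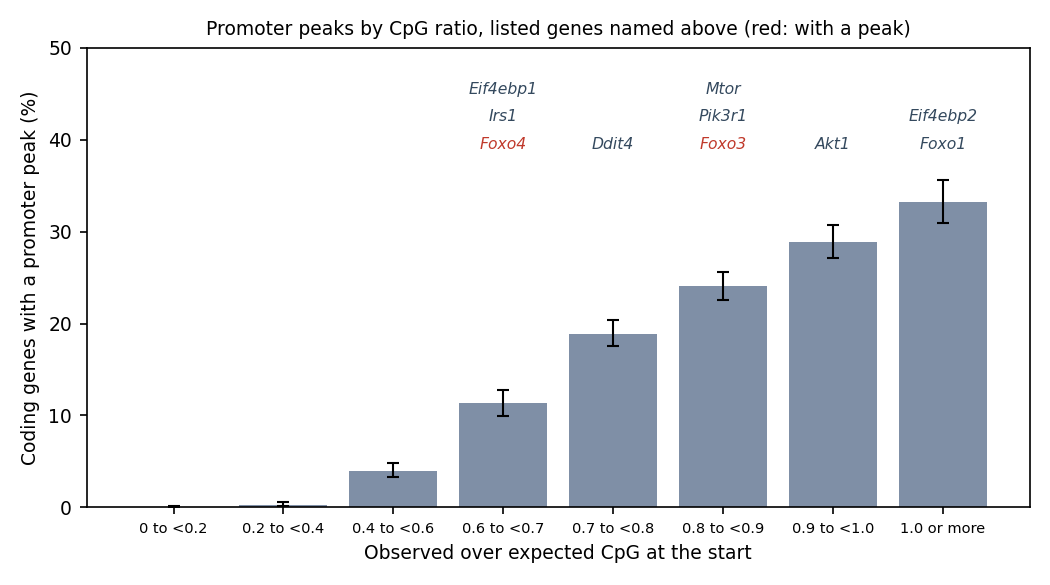
Share of protein-coding genes with a promoter peak (y axis, percent, with Wilson 95% intervals) by CpG ratio at the start (x axis), with the names of the 10 genes above their class. The share rose from 0.0% under a ratio of 0.2 to 33.2% at 1.0 or more, while Foxo4 with a peak stood in the class of 0.6 to 0.7 and Foxo1 and Eif4ebp2 without one stood in the highest class.

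The nearest relatives of the listed genes were compared next, to see whether the pattern held over whole families. In 6 families with 17 genes, 3 genes (17.6%) had a promoter peak, namely Foxo3, Foxo4 and Akt2, beside 13.4% of all protein-coding genes and 23.1% of those with a CpG ratio of at least 0.6. Akt2 encodes the AKT isoform best known for insulin-stimulated glucose uptake. Its summit lay 14 bp before its start, with a fold enrichment of 18.2 and a −log10 q of 59.6, and the 2-mismatch copy nearest to it carried G1A and T6G. Irs2, the other adaptor of this kind in the list, was 546895 bp from its nearest summit. Pik3r2 and Pik3r3, Ddit4l, and Eif4ebp3 likewise had none, with distances from 15505 bp for Eif4ebp3 to 294760 bp for Ddit4l.

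The rest of the pathway was taken from a list of 103 genes in 8 roles. A promoter peak was found at 30 of them (29.1%, Wilson 95% interval 21.2 to 38.5%), beside the 13.4% of all protein-coding genes. Among genes with a CpG ratio of at least 0.6 it was 30.9% of the list (30 of 97, 22.6 to 40.7%) and 23.1% of all protein-coding genes (2707 of 11721), so the interval of these 97 genes held the share of all genes. The list was drawn up with earlier results of these data known, so its share is a description. Together with the 10 genes, 32 of 113 had a promoter peak.

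Among receptors, ligands and adaptors 3 of 10 genes had a promoter peak. These were the adaptor genes Grb2 (fold enrichment 16.2), Sh2b1 (11.3) and Shc1 (5.52). The receptors Insr and Igf1r and the ligand Igf1 had none, and the nearest summit of Insr lay 113386 bp away. Among PI3K subunits and phosphatases 5 of 14 had one. They included Pik3ca, the catalytic partner of the Pik3r1 products, with 10.5, as well as Pik3c3 (9.82) and Phlpp2 (10.8). Ppp2ca, the catalytic subunit of a phosphatase that acts on AKT, reached 25.6. Pik3cb, Pik3cd and Pik3r2 had none.

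At the level of AKT and its substrates 2 of 11 genes had a promoter peak, Akt2 and Bad, a cell death gene whose product AKT inactivates (16.8). The AKT-activating kinase gene Pdpk1 had none, with a summit 18917 bp before its start, and Sgk1 had none either. Of the genes of mTOR complexes 4 of 11 had one. Mapkap1, a core subunit of mTORC2, had a fold enrichment of 16.5, and Akt1s1, an inhibitor within mTORC1, had 10.3. Telo2 (17.2) and Tti1 (15.8) encode partners that help to assemble the mTOR kinase. Rptor and Rictor, the defining subunits of mTORC1 and mTORC2, lacked a promoter peak, as did Mtor.

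The axis of TSC and Rheb with its negative regulators had 5 of 12 genes with a promoter peak. Tbc1d7, the third subunit of the TSC complex, had a fold enrichment of 20.0, whereas Tsc1 and Tsc2 had no promoter peak. Rheb, the GTPase that activates mTORC1, had 7.07 and its relative Rhebl1 had 10.4. Prkaa1, a catalytic subunit of AMP-activated kinase, had 16.7. Sesn1, a stress-induced inhibitor of mTORC1 signalling, had 15.0 and held an exact palindrome within 100 bp of its summit. In amino acid sensing the peaks were at 5 of 25 genes, namely Castor2 (33.7), Lamtor3 (19.9), Nprl3 (16.2), Nprl2 (12.3) and Flcn (7.87). No other gene of the pathway list exceeded Castor2, a relative of the arginine sensor gene Castor1. Rraga, Rragb and Rragc, genes of the Rag GTPases, had none.

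Among the outputs of mTORC1, where Eif4ebp1 and Eif4ebp2 act, 5 of 10 genes had a promoter peak. Eif4e, which encodes the cap-binding protein held by both repressors, had a fold enrichment of 8.79. Rps6kb1, the S6 kinase gene, had 18.2, and Ulk1, the kinase that starts autophagy and is inhibited by mTORC1, had 12.2. Pdcd4 (12.7, with an exact palindrome) and Eif4b (7.83) encode a repressor and an activator of translation that S6 kinase phosphorylates. Rps6kb2, Rps6 and Eif4ebp3 had no promoter peak. Of 10 other FOXO family genes and regulators only Mdm2, a ubiquitin ligase gene, had one (6.19), while Foxo6, Sirt1 and Usp7 had none.

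**Figure D4:**
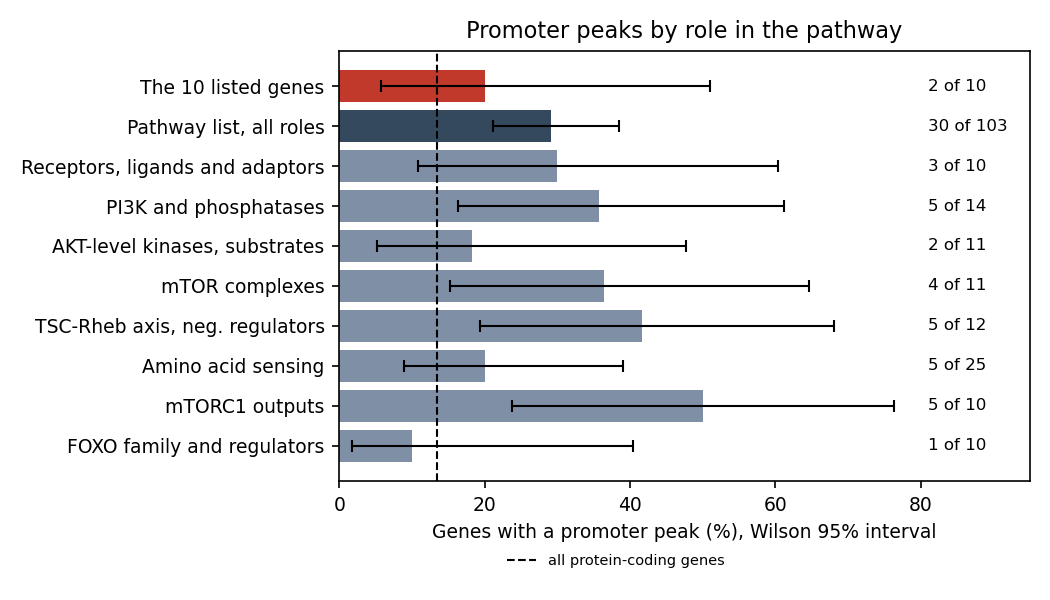
Share of genes with a promoter peak (x axis, percent, bars from 0) for the 10 genes (red), for the pathway list of 103 genes and for its 8 roles, with Wilson 95% intervals and the counts beside the bars. The dashed line marks the 13.4% of all protein-coding genes, and it lies inside the intervals of the 10 genes and of 4 roles, and below those of the pathway list, PI3K and phosphatases, mTOR complexes, the TSC-Rheb axis and mTORC1 outputs. The 23.1% of all protein-coding genes with a CpG ratio of at least 0.6 lies inside all of these intervals but that of mTORC1 outputs, which starts at 23.7%. The intervals count all genes of a group, also those with a lower CpG ratio, so the sets are unlike. No interval by role was computed for the genes at or above 0.6.

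Sites at 4 of these pathway promoters are shown with 10 bases on either side, with the copy of fewest mismatches within 100 bp of the summit (the nearest of equals) in capitals, because they cover the range from 1 to 2 mismatches. They lie at chr7:27591515-27591544 for Akt2, chr3:32396946-32396975 for Pik3ca, chr13:43171501-43171530 for Tbc1d7 and chr11:86544804-86544833 for Rps6kb1, on the strand of each gene.
Akt2: tgcctaaagtACGCAGGCGCgctgccttga
Pik3ca: gaagagcaggACGCAGGCGCagtgagtcac
Tbc1d7: gatgtcctctGCGCACGCGCatccggggcg
Rps6kb1: aagactttgtACGCATGCGCcggagctgaa

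Akt2 and Pik3ca shared their 10-base site, and the Tbc1d7 site was the reverse complement of the one at Foxo4. A site with at most 1 mismatch lay within 100 bp of the summit at 17 of the 30 pathway peaks (56.7%), beside 65.9% of all promoter peaks and both FOXO peaks. The median fold enrichment of the 30 peaks was 12.9, with quartiles of 10.3 and 16.8. Of the 30 peaks, 7 lay in a promoter shared with another gene, such as those of Rps6kb1 and Tubd1. The peaks at Foxo3 and Foxo4 each lay in 1 promoter. Shared promoters were not counted over all promoter peaks, so these counts do not tell the groups apart. Of the 73 list genes without a promoter peak, 6 (8.22%) had their nearest summit just past the promoter window, 100 to 600 bp after a start, with Mlst8 at 249 bp and Gsk3b at 509 bp. The share was 1.35% of all protein-coding genes without a promoter peak (245 of 18192), and 0 of the 8 listed genes had such a summit. A CpG ratio of at least 0.6 was held by 97 of the 103 list genes and by 11721 of all 21000 protein-coding genes. The share just past the window was not computed within this class, and it was looked at after values were seen. Hence it is a description only.

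**Figure D5:**
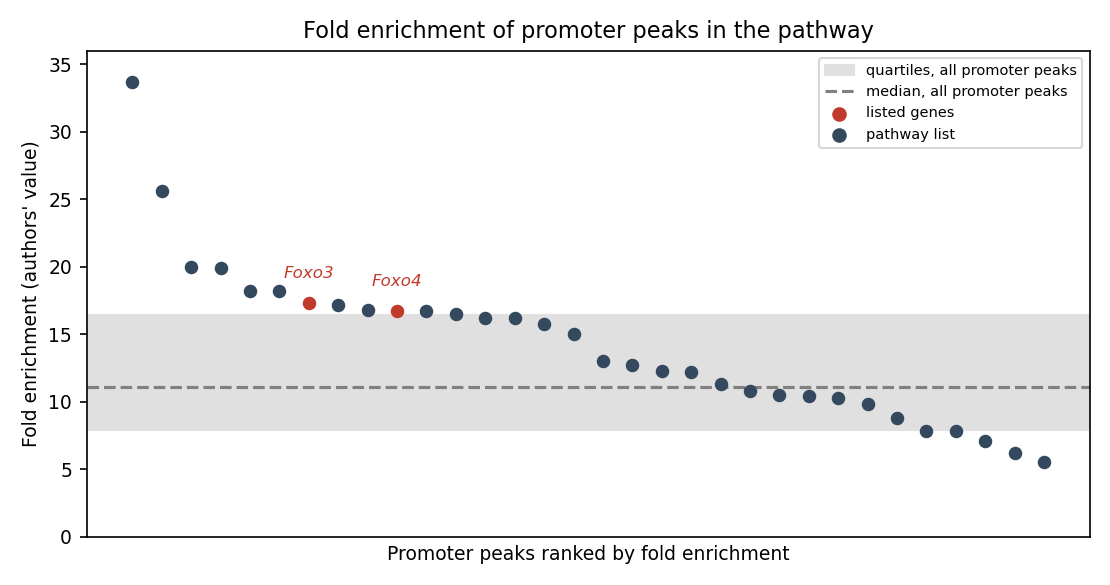
Fold enrichment given by the authors (y axis, linear) for the promoter peaks of Foxo3 and Foxo4 (red) and of the 30 pathway genes (dark), in falling order along the x axis (rank). The shaded band shows the quartiles of all 2607 promoter peaks, 7.9 and 16.4, and the dashed line their median of 11.1, so Foxo3 at 17.3 and Foxo4 at 16.7 lie just above the upper quartile.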

How the data were processed

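The authors mapped single-end reads of 50 bp to mm10 with Bowtie, kept uniquely mapped reads, removed those in blacklisted regions (of a human build, per the methods) and called peaks with MACS2 against input DNA. The methods give the broad setting of MACS2, whereas the deposited list holds narrow peaks with summits. Pooling of libraries is not mentioned. The deposited list holds 3226 peaks with positions, a score, a fold enrichment (a ratio to the background), p-values and q-values on the −log10 scale, and a summit. The methods exclude peaks with a false discovery rate over 0.01, whereas 7 peaks of the list had a higher q-value (lowest −log10 q 1.32). The study also reports fewer NRF1 binding sites than this list holds, so the list differs from the one behind the study's counts. None of the 7 was the nearest peak of the 10 genes. Unique mapping and a limit on duplicate reads can lower the signal in repeats and at the strongest sites, which was not measured here.

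From this list, summits were set against 31603 starts of 45756 known RefSeq transcripts of GRCm38, the assembly of mm10. Predicted transcripts were left out. All 10 genes matched by symbol. Sequences come from the RefSeq genome, and the RefSeq promoter table matched 8 of the 10 genes with the same bases. The palindrome was searched on both strands, with overlaps allowed. No test was made, as there is 1 list without replicate error. The scripts were tested on simulated data (Python 3.11.15, NumPy 2.4.6, SciPy 1.17.1, Matplotlib 3.10.9).

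The 10 genes and the pathway list were chosen with earlier results of these data known. Named were all 10 genes, in each role of the list every gene with a promoter peak and up to 3 without one in list order, and the gene nearest to each nearest summit, except that some genes are not reported here. Relatives of the 10 genes, the genes just past the promoter window and the sites printed for 4 pathway genes were chosen after values were seen. Alternatives changed the promoter window, the starts, the thresholds on q and fold enrichment, the mismatches and the CpG window. GENCODE M21 starts were added after seeing the data.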

Additional observations from a re-analysis of the deposited data

How the results depend on the processing

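The count of 2 genes with a promoter peak, Foxo3 and Foxo4, was the same under every alternative run. The pathway list gave 29 to 35 genes and all protein-coding genes 2680 to 3089. In the list, Shc1 and Sesn1 lost their promoter peak with 500 bp either side of a start, and Shc1 also with q at most 1e-05. Cdkn1b, Mlst8, Lamtor4, Seh1l and Itfg2 gained one where the window reached 500 bp after a start, and Gsk3b with GENCODE M21 starts. The median distance of the 10 genes to their nearest summit moved from 38.1 kb to 80.5 kb with peaks of q at most 1e-05 and to 109.0 kb with a fold enrichment of at least 5, since Eif4ebp2 and, at the latter, Mtor lost weak nearest peaks. With no mismatch allowed, 0 of the 2 promoter peaks and 0 of the 10 promoters held the palindrome, with at most 2 mismatches 6 promoters did, and in a window of 250 bp before to 50 bp after a start 1 did, Foxo3. The median CpG ratio of 0.868 was 0.808 at the most upstream starts, where Akt1 had 0.292, and 0.822 within 100 bp. With predicted starts the Foxo4 summit lay at −131 bp, and with GENCODE M21 starts, chosen after seeing the data, the Foxo3 summit lay at −92 bp. Read depth is unknown and limits every statement on a gene without a peak. No paired analysis was possible because the file analysed here is 1 list of peaks without values per library, and leaving out each replicate was not possible for the same reason.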
